A study of Mus musculus with 6 samples.

Results

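Transcript levels of the enzymes that break down glucose, store and release glycogen, and feed the pentose phosphate pathway were compared in brown adipose tissue (BAT) between mice deficient in KRAP (KO) and wild-type (WT) littermates. The 39 genes were chosen by symbol. They cover glycolysis, lactate handling, the control of fructose bisphosphate, glycogen metabolism, the pentose phosphate pathway and the entry of fructose. On the Affymetrix mouse genome array each gene is read by 1 or more probe sets, and each gene was represented by the probe set annotated to it alone that had the highest mean signal over the 6 arrays. Of the 39 genes, 34 had such a probe set and 32 were bright enough to be tested, among 11140 genes tested in all.

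KRAP associates with actin filaments. KO mice carried a targeted allele on the C57BL6/J background in which exons that hold part of the KRAP coding region had been replaced by a neomycin resistance cassette, and the deletion was present in the whole animal. The 3 KO and 3 WT animals formed 3 littermate pairs of 32 weeks of age on normal chow, with 1 array of total RNA for each animal and no pooling. The labels do not state their sex. The study followed glucose use in BAT of KRAP-deficient mice, and the comparison asks whether transcripts of the enzymes that handle glucose differ with the genotype.

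Glycolysis turns glucose into pyruvate, and its pace is set by hexokinase, which traps glucose in the cell as glucose phosphate, and by phosphofructokinase. Glucose phosphate can instead be stored as glycogen or be drawn into the pentose phosphate pathway, which supplies NADPH for fatty acid synthesis and ribose for nucleotides. Brown adipocytes are known for taking up large amounts of glucose when they are activated, and use it as fuel and for making lipid.

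Signals are given relative to the array median, and differences as log2 values, KO minus WT, with 95% confidence intervals. That median was 16.5 to 20.4 intensity units. KRAP, under its current symbol Itprid2, is named by 1 probe set, which read 35.1 to 46.95 in KO and 42.2 to 56.6 in WT. It was lower in 3 of 3 pairs, by a log2 difference of -0.32 (limma adjusted p = 0.720), and as its position relative to the deleted exons is not known here it does not check the labels. Of 9 adipocyte markers listed for brown fat, 7 had a probe set and all 7 were above the filter, with summed signals of 2747 to 3495 in KO and 2766 to 3534 in WT. Fabp4 and Adipoq, 2 of the bright ones, are not particular to brown fat. The dimmer Dio2 and Elovl3 ranged over the 6 arrays from 4.05 to 101 and from 6.77 to 40.4. The WT 2 array stood apart in its 3′ to 5′ signal ratios, a measure of RNA integrity, with 3.80 for actin against 1.91 to 2.58 on the other arrays, and 0.961 for Gapdh against 0.690 to 0.809. WT 2 also gave the highest of the 6 signals for 17 of the 32 tested enzymes (53.1%) and for 36.7% of all genes tested. Most branch medians and many of the larger differences are therefore also given without pair 2. In bulk tissue, fewer cells of a type and less RNA per cell cannot be told apart.

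Of the 32 tested enzymes, 22 had a mean log2 signal below WT in KO, as did 6856 of all 11140 genes tested. Of the 32, 0 passed the adjusted test. Among all 22356 probe sets tested with limma, 0 (0%) passed at an adjusted p of 0.05, and at an unadjusted p of 0.05 there were 1149 lower and 762 higher. Of the 32 enzymes, 4 were lower at an unadjusted p of 0.05 (12.5%), Hk1, Hk2, Pfkp and Pgd, against 4.98% of all genes tested, and 2 were higher (6.25%), Aldoc and Pgls, against 3.22%. With a variance prior that follows the intensity and is robust to outlying probe sets, 311 probe sets (1.39%) passed. Among them were 3 enzymes as lower, against 1.15% of all genes tested, and 1 as higher, against 0.557%, with limma adjusted p-values of 0.0128 for Hk1, 0.0129 for Pgd, 0.0190 for Pgls and 0.0425 for Pfkp.

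The signal was lower in KO in all 3 pairs for 13 of the 32 enzymes (40.6%), against 19.7% of all genes tested, and higher in all 3 pairs for 4 (12.5%), against 10.9%. The 13 were Hk1, Hk2, Pfkl, Pfkp, Aldoa, Pgk1, Pgam1, Pkm, Ldha, Slc16a1, Fbp2, Pygl and Pgd, and the 4 were Aldoc, Pfkfb3, Pgls and Khk. No enzyme differed by 1.5-fold in all 3 pairs in either direction, a size that 0.862% of genes reached as lower and 0.601% as higher. The KO arrays all lay below the WT arrays for 4 enzymes (12.5%), Hk2, Pfkp, Pygl and Pgd, against 7.87% of genes, and all above them for 2 (6.25%), Pgls and Khk, against 4.43%. The summed signal of 5 endothelial markers also lay lower in KO without overlap, at 42.6 to 48.5 in KO and 53.2 to 59.5 in WT. Of the 5, 3 were lower in all 3 pairs (Cdh5, Kdr and Cldn5), while Pecam1 gave 0.05 and Tek -0.06. The part of endothelial RNA in the lower enzymes was not tested.

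The median log2 difference of the 32 enzymes was -0.22, with 22 below 0 and 10 above 0. Over all 11140 genes tested it was -0.07, with 6856 below 0 and 4284 above 0. By pair the median was -0.15, -0.49 and -0.04 in pairs 1 to 3, beside -0.03, -0.24 and 0.06 for all genes, so pair 2 held the lowest values in both. Without pair 2 the median was -0.09 for the enzymes and 0.01 for all genes. In pairs 1 and 3 alone, 15 enzymes (46.9%) were lower in both, against 25% of all genes, and 6 were higher in both, against 28.8%. Without pair 1, 14 enzymes were lower in both other pairs, against 32.8%, and 6 higher, against 18.1%. Without pair 3, 18 were lower, against 40.8%, and 7 higher, against 15.7%.

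**Figure D1:**
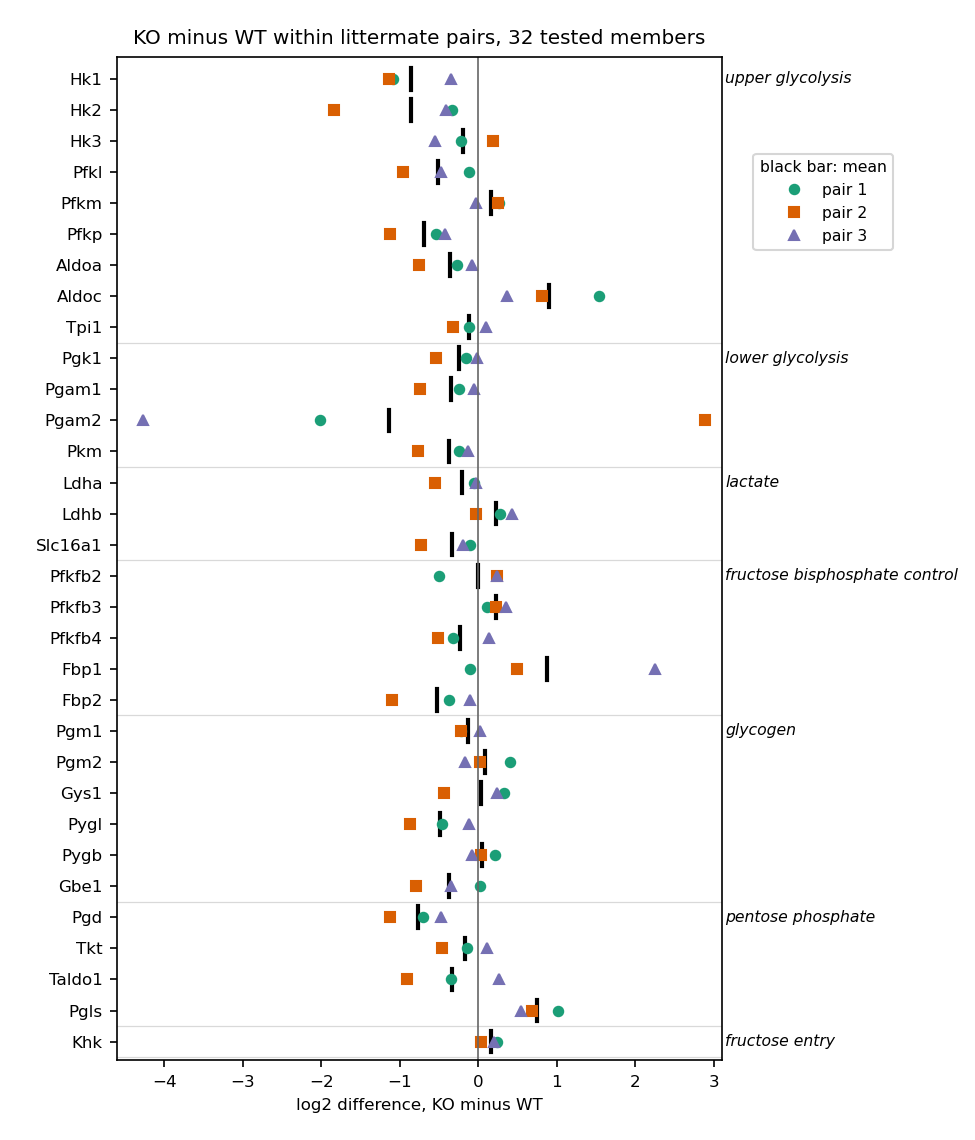
Log2 differences, KO minus WT, on the horizontal axis for the 32 tested enzymes, listed down the page by branch, with a symbol for each littermate pair and a black bar for the mean of the 3 pairs. Pair 2 (squares) lies farthest left for 21 of the 32 enzymes (65.6%), against 57.6% of all genes tested. Pgls and Aldoc are right of 0 in every pair.

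Transcripts of both hexokinases with a clear signal, the enzymes that trap glucose in the cell, were lower in KO in each pair. Hk1, the hexokinase found in most tissues, read 8.55, 12.9 and 19.5 on KO arrays 1, 2 and 3, against 18.2, 28.4 and 24.8 on the WT arrays in the same order, with means of 13.7 ± 5.53 in KO and 23.8 ± 5.19 in WT (SD, n = 3 each). Its log2 difference was -0.86 (-1.42 to -0.30, limma adjusted p = 0.440). KO 3 lay above WT 1, so the groups overlapped, but each KO animal was below its own littermate, and the difference was -0.72 without pair 2. A dimmer probe set of Hk1, with 2.46, 1.85 and 3.34 in KO and 4.77, 5.06 and 4.98 in WT, did not overlap and gave -0.995. A further probe set that Hk1 shares with other genes was not used.

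Hk2, the insulin-responsive hexokinase of muscle and fat, read 52.1, 46.9 and 55.5 in KO and 65.9, 167 and 73.8 in WT, a log2 difference of -0.86 (-1.64 to -0.08, limma adjusted p = 0.556). The KO arrays were close together and all below WT, while WT 2 stood far above the other WT arrays. The KO over WT ratios were 0.791, 0.281 and 0.751 in pairs 1 to 3, and without pair 2 the difference was -0.38. Hk3, a hexokinase typical of blood leukocytes, was near the array median at 0.948, 1.84 and 1.16 in KO and 1.104, 1.61 and 1.70 in WT (-0.19, limma adjusted p = 0.855). The summed signals of 9 macrophage and myeloid markers were 113.1 to 124.2 in KO and 91.2 to 123.7 in WT, and their part in Hk3 was not tested.

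The subunits of phosphofructokinase, the committed step of glycolysis, gave differences of both signs. Pfkp, the platelet-type subunit, read 28.7, 28.4 and 28.0 in KO and 41.5, 62.0 and 37.5 in WT, with a log2 difference of -0.69 (-1.22 to -0.16, limma adjusted p = 0.491). The KO signals were nearly equal to one another, with an SD of 0.36, and lay below every WT signal, and the difference was -0.48 without pair 2. A second tested probe set of Pfkp gave -0.38, with pair differences of -0.38, -0.36 and -0.40. Pfkl, the liver-type subunit, read 102, 70.6 and 68.5 in KO and 110.0, 137 and 94.9 in WT (-0.51, -1.06 to 0.04, limma adjusted p = 0.613). KO 1 was above WT 3, so its groups overlapped although each pair was lower, and the difference was -0.29 without pair 2. Its second probe set gave -0.45, but its dimmest, at 4.39, 2.32 and 2.28 in KO and 3.70, 1.02 and 2.73 in WT, gave 0.39, so the sign depends on the probe set. Pfkm, the muscle-type subunit, read 22.6, 28.2 and 22.6 in KO and 18.8, 23.6 and 22.9 in WT, a difference of 0.17 (-0.29 to 0.63, limma adjusted p = 0.858).

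The aldolases, which split fructose bisphosphate, also had opposite signs. Aldoa, the main aldolase of muscle and many other tissues, read 351, 305 and 312 in KO and 421, 513 and 329.6 in WT, a log2 difference of -0.36 (-0.88 to 0.15, limma adjusted p = 0.689). It was lower in each pair, with overlapping groups, and its 5 tested probe sets gave -0.53 to -0.16. Without pair 2 it was -0.17. Aldoc, the brain-type aldolase, read 3.21, 4.20 and 5.08 in KO and 1.11, 2.39 and 3.92 in WT, and its difference was 0.91 (0.28 to 1.54, limma adjusted p = 0.467). It was higher in 3 of 3 pairs by 1.53, 0.81 and 0.37, while the groups overlapped because WT 3 was above KO 1. Without pair 2 the Aldoc difference was 0.95. A second Aldoc probe set was too dim to be tested and gave 0.15, with 2 of 6 signals below the floor of 0.25. Tpi1, which interconverts the triose phosphates, was -0.11 (limma adjusted p = 0.920), at 104 to 128 in KO and 103 to 138 in WT.

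**Figure D2:**
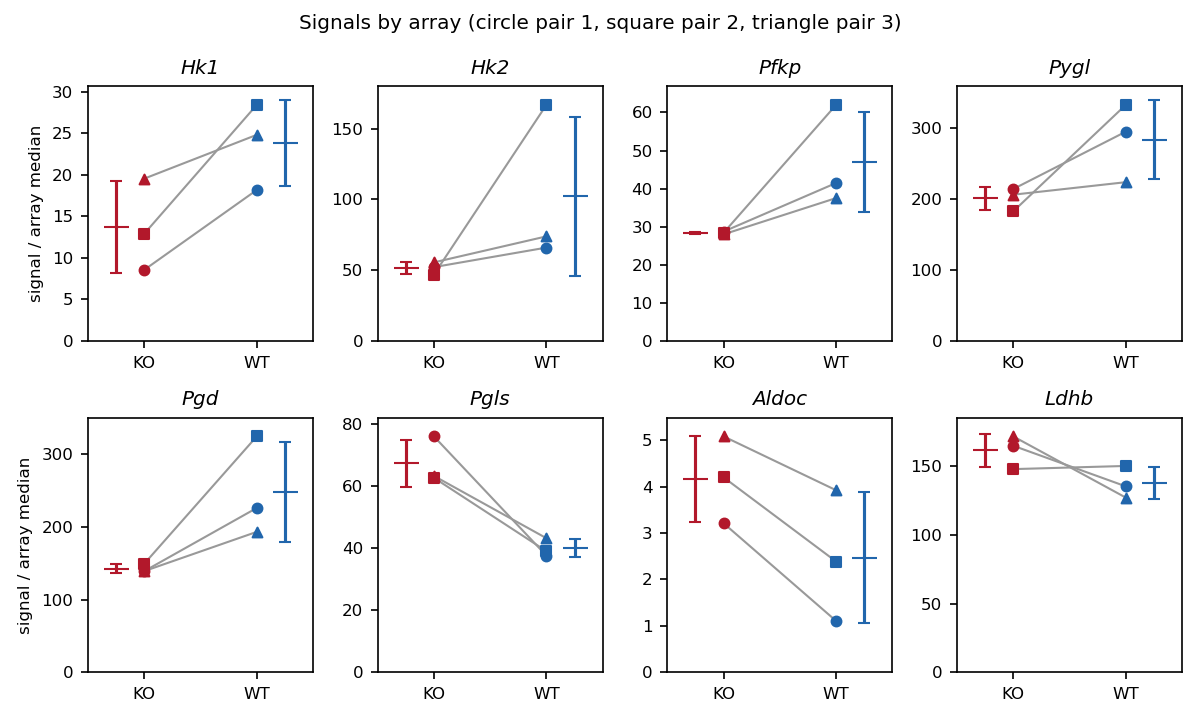
Signals of 8 enzymes as multiples of the array median, each on its own linear axis from 0, with KO left of WT, grey lines between littermates and bars for means with SD (n = 3). KO lies below WT in every pair for Hk1, Hk2, Pfkp, Pygl and Pgd and above it for Pgls and Aldoc, and the WT 2 square is the highest point for Hk1, Hk2, Pfkp, Pygl and Pgd.

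The median log2 difference of the 9 tested upper glycolytic enzymes was -0.36, with pair medians of -0.22, -0.75 and -0.34 and -0.29 without pair 2. It was -0.23 with the mean over all probe sets of a gene. It was -0.19 over the 5 genes that have a tested plain probe set. Plain names carry neither s or x, the marks of cross-matching, nor a. That setting leaves out Hk1, Aldoa, Aldoc and Tpi1 and reads Pfkl by its dimmest probe set. Gpi1, the isomerase of this branch, had no probe set named here and was not analysed here.

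From the triose phosphates to pyruvate, Pgk1, Pgam1 and Pkm were lower in KO by small margins. Pgk1, which makes the first ATP of the pathway, read 226, 179.9 and 206 in KO and 252, 262 and 208 in WT (-0.24, -0.73 to 0.25, limma adjusted p = 0.794). Pgam1, the phosphoglycerate mutase of most tissues, read 124, 84.4 and 95.3 in KO and 147, 141 and 99.1 in WT (-0.35, limma adjusted p = 0.703). Pkm, the pyruvate kinase of muscle and most non-liver tissues, read 195, 160.0 and 178 in KO and 229.6, 272 and 194 in WT (-0.38, -0.89 to 0.14, limma adjusted p = 0.679). All 3 were lower in 3 of 3 pairs, with KO and WT signals that overlapped, and in pair 3 the differences were only -0.02 for Pgk1, -0.06 for Pgam1 and -0.13 for Pkm. Without pair 2 the differences were -0.09, -0.15 and -0.18, in the same order.

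Gapdh alone is named only by 3 control probe sets, which were kept out of the fit, and its values are a description. A further 3 probe sets that Gapdh shares with other genes were not used. The probe set at its 3′ end read 370.0, 305 and 355 in KO and 464, 495 and 346 in WT, with log2 differences of -0.33, -0.70 and 0.04 in pairs 1 to 3. The mean differences were -0.26, -0.31 and -0.33 for the 5′, middle and 3′ probe sets. Gapdh was therefore lower in pairs 1 and 2 on all 3 control probe sets and near 0 in pair 3. Eno2, the neuronal enolase, was below the filter at 0.149, 0.297 and 0.0644 in KO and 0.157, 0.500 and 0.470 in WT, with 3 of 6 signals below the floor. Eno1, the widely expressed enolase, had no probe set named here and was not analysed here.

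Pgam2, the muscle-type mutase, followed another pattern. It read 0.286, 12.4 and 0.197 in KO and 1.16, 1.67 and 4.84 in WT, and its log2 difference of -1.13 (-3.98 to 1.71, limma adjusted p = 0.839) came from pair differences of -2.02, 2.89 and -4.27. KO 3 lay under the floor of 0.25, so the size of the pair 3 difference depends on the floor. With a floor of 0.05 the Pgam2 difference was -1.25. The high arrays were KO 2 and WT 3, the same that led for skeletal muscle markers. All 15 muscle markers were highest in KO 2 and 14 of 15 came second in WT 3, with summed signals of 166.1, 1334 and 115.6 in KO and 285.5, 212.6 and 606.6 in WT. Eno3, the muscle enolase, read 5.58, 35.6 and 5.28 in KO and 7.05, 7.42 and 15.8 in WT. Pygm, the muscle phosphorylase, read 1.82, 13.9 and 1.07 in KO and 2.28, 2.37 and 7.25 in WT. Both had the same high arrays as Pgam2. The part of muscle RNA in these values was not tested. Without pair 3 the Pgam2 difference was 0.44, and without pair 2 it was -3.15. Pfkm, another muscle-type enzyme, was also highest in KO 2 but spanned only 22.6 to 28.2 in KO and 18.8 to 23.6 in WT. Its difference was 0.12 without pair 2, and the part of muscle RNA in Pfkm was not tested.

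**Figure D3:**
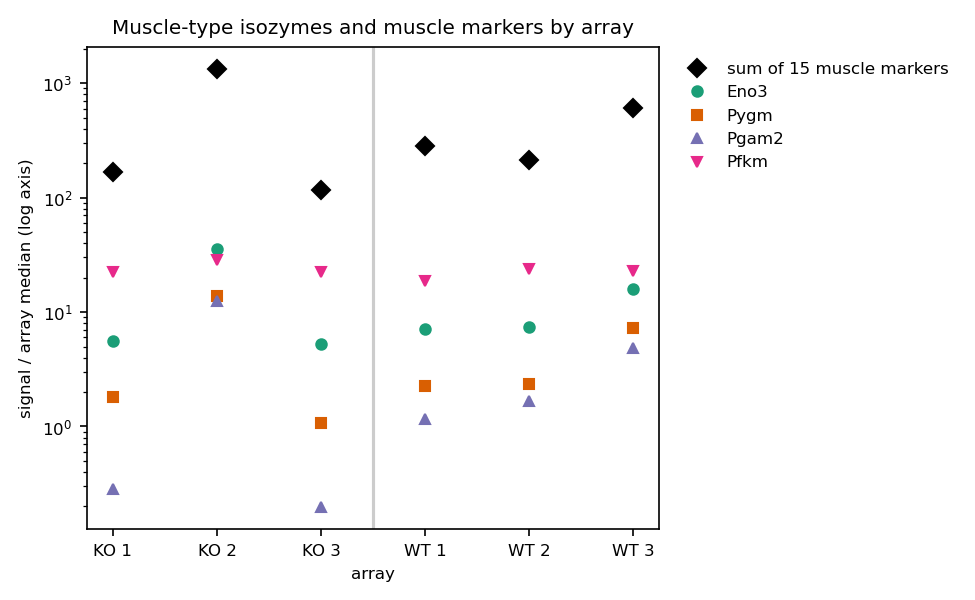
Signals of 4 muscle-type isozymes and the summed signal of 15 skeletal muscle markers (vertical log axis, multiples of the array median) on the 3 KO arrays at the left and the 3 WT arrays at the right, without replicate averaging. Pgam2, Eno3, Pygm and the marker sum are highest in KO 2 and second in WT 3, while Pfkm, also highest in KO 2, stays between 18.8 and 28.2.

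The median of the 4 tested lower glycolytic enzymes was -0.36, with pair medians of -0.24, -0.64 and -0.09 and -0.17 without pair 2.

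Lactate dehydrogenase is a tetramer of A and B subunits, and their transcripts took opposite signs. Ldha, the subunit that predominates in glycolytic tissue, read 341, 258 and 278 in KO and 354, 376 and 283 in WT, with a log2 difference of -0.21 (-0.71 to 0.29, limma adjusted p = 0.829). Ldhb, the subunit that predominates in oxidative tissue such as heart, read 165, 148 and 172 in KO and 135, 150.1 and 127 in WT, with 0.23 (-0.25 to 0.71, limma adjusted p = 0.794). The groups overlapped for both genes, Ldha was lower in each pair and Ldhb higher in pairs 1 and 3, and the 4 Ldhb probe sets all gave 0.20 to 0.23. On the other 3 Ldhb probe sets the KO signals all lay above the WT signals, although KO 2 and WT 2 both read 142 on one of them. Without pair 2 the difference was -0.04 for Ldha and 0.36 for Ldhb. Within pairs, the Ldhb difference exceeded the Ldha difference by 0.34, 0.52 and 0.46, a contrast singled out among 4 after its values had been seen (exact sign-flip p = 0.25, two-sided, the smallest that 3 pairs allow).

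The lactate transporters were represented by Slc16a1, the monocarboxylate transporter of most cells, at 158, 122 and 129 in KO and 169, 202 and 147 in WT. It was lower in 3 of 3 pairs, with a difference of -0.34 (-0.85 to 0.18, limma adjusted p = 0.706), and the groups overlapped. Without pair 2 it was -0.15. A second probe set of Slc16a1, was below the filter at 0.437, 0.164 and 0.321 in KO and 1.21, 2.06 and 0.765 in WT, with no overlap. KO 2 lay under the floor of 0.25 there, so no difference is given. Slc16a3, the transporter of strongly glycolytic cells, was below the filter at 0.217, 0.873 and 0.147 in KO and 0.923, 0.210 and 0.327 in WT, 3 of them under the floor. The median of the 3 tested lactate genes was -0.21, and -0.04 without pair 2.

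Fructose bisphosphate is made by phosphofructokinase and removed by fructose bisphosphatase, and the bifunctional Pfkfb enzymes set the level of the sugar phosphate that switches between them. Their transcripts had no common direction, with a branch median of -0.01 over 5 genes, whose sign changed with the processing. That median was -0.09 without pair 2. Pfkfb3, the inducible form with strong kinase activity, read 76.7, 19.6 and 22.6 in KO and 70.7, 16.8 and 17.7 in WT, a log2 difference of 0.23 (-0.22 to 0.68, limma adjusted p = 0.779). It was slightly higher in KO in each pair, by 0.12, 0.22 and 0.35, but both animals of pair 1 stood far above those of pairs 2 and 3. The pair means spanned 2.02 on the log2 scale, more than the difference between genotypes. A second probe set showed the same, with 11.1, 2.52 and 2.98 in KO and 9.50, 1.54 and 2.31 in WT. Pfkfb2, the heart-type form, had means of 1.55 ± 0.542 in KO and 1.51 ± 0.276 in WT (SD, n = 3 each) and a difference of -0.01. Pfkfb4, the testis-type form, had means of 2.87 ± 0.154 in KO and 3.40 ± 0.590 in WT (SD, n = 3 each) and a difference of -0.23. Pfkfb1, the liver-type form, had no probe set named here and was not analysed here.

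**Figure D4:**
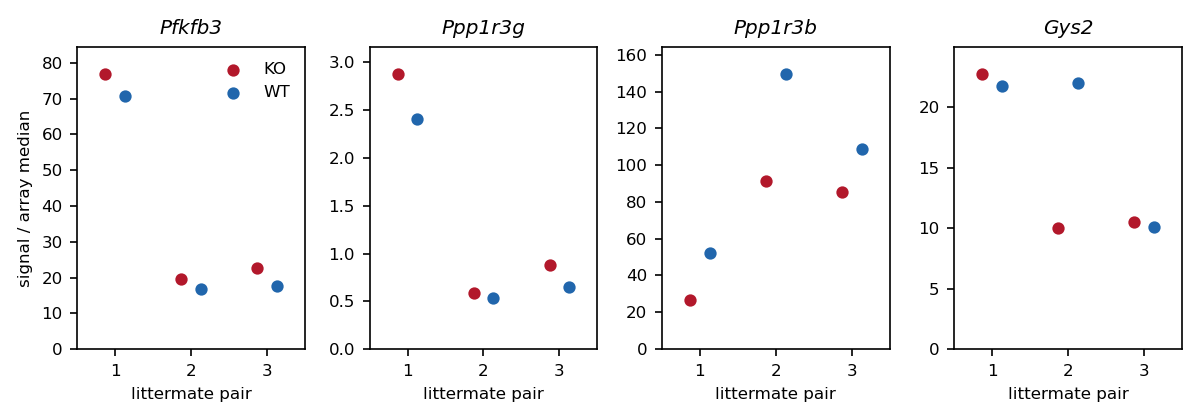
Signals of 4 genes as multiples of the array median (linear axes from 0) by littermate pair, with KO at the left and WT at the right within each pair. Pair 1 is high in both genotypes for Pfkfb3 and for Ppp1r3g, a glycogen-targeting phosphatase subunit, and low in both for Ppp1r3b, while Gys2, the liver-type glycogen synthase, differs between the animals of pair 2.

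The bisphosphatases, whose genes are neighbours on chromosome 13 (chr13:62864753-62888298 for Fbp1 and chr13:62836884-62858400 for Fbp2, GRCm38.p6), had opposite signs. Fbp1, the liver-type enzyme of gluconeogenesis, read 2.01, 2.59 and 3.25 in KO and 2.16, 1.84 and 0.681 in WT, a log2 difference of 0.88 (-0.16 to 1.92, limma adjusted p = 0.638). Most of it lay in pair 3, with pair differences of -0.11, 0.49 and 2.25, and it was 0.19 without that pair and 1.07 without pair 2. Of 9 liver markers, 8 had a probe set and 4 were above the filter. KO 3 held the highest signal of 7 of the 8, and their sum was 5.14, 4.31 and 59.5 in KO and 4.46 to 4.53 in WT, and the part of liver RNA in Fbp1 was not tested. Fbp2, the muscle-type enzyme, read 5.78, 3.80 and 4.97 in KO and 7.45, 8.16 and 5.34 in WT (-0.52, -1.12 to 0.07, limma adjusted p = 0.636), lower in 3 of 3 pairs with overlapping groups, and -0.23 without pair 2. Fbp2 did not share the high KO 2 array of the muscle markers.

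Glycogen enzymes had a median of -0.05 over 6 genes, which lay above 0 in 3 other settings, and of these Pygl alone was lower in each pair. Pygl, the liver-type glycogen phosphorylase, which releases glucose phosphate from glycogen, read 214, 182 and 206 in KO and 295, 332 and 224 in WT. Its log2 difference was -0.48 (-1.01 to 0.05, limma adjusted p = 0.621), with every KO signal below every WT signal, although KO 1 and WT 3 were close, and it was -0.29 without pair 2. Pygb, the brain-type phosphorylase, read 29.8, 33.9 and 34.8 in KO and 25.8, 33.1 and 36.8 in WT (0.05, -0.40 to 0.51, limma adjusted p = 0.963). Gys1, the glycogen synthase of muscle and fat, had 0.04 (-0.51 to 0.59), at 15.96 to 28.8 in KO and 15.4 to 23.0 in WT, with pair differences of 0.33, -0.44 and 0.23. The groups overlapped for both. Gbe1, the branching enzyme, was -0.37 (-0.92 to 0.17, limma adjusted p = 0.697) and lower in 2 of 3 pairs, at 47.5 to 62.1 in KO and 61.2 to 82.6 in WT, and -0.16 without pair 2. The genes named for phosphoglucomutase, Pgm1 and Pgm2, gave differences of opposite sign. Pgm1, which links glucose phosphate to glycogen, had -0.13, at 48.1 to 59.96 in KO and 56.0 to 69.5 in WT. Pgm2 had 0.09, at 2.63 to 3.4997 in KO and 2.59 to 3.22 in WT. These are the genes on chromosomes 4 and 5 in the GRCm38.p6 annotation, whose symbols were used the other way round in older mouse lists.

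The pentose phosphate pathway held differences of opposite sign on neighbouring steps. Pgd, phosphogluconate dehydrogenase, which yields NADPH, read 139, 149 and 139 in KO and 226, 324 and 193 in WT, with means of 143 ± 5.85 in KO and 248 ± 68.3 in WT (SD, n = 3 each). Its log2 difference was -0.76 (-1.27 to -0.25, limma adjusted p = 0.444), and -0.59 without pair 2. Every KO signal lay below every WT signal. This held on each of the 4 Pgd probe sets, with differences of -1.02 to -0.76.

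Pgls, the lactonase that acts just before Pgd, ran the other way. It read 76.1, 62.8 and 63.4 in KO and 37.7, 39.1 and 43.3 in WT, with means of 67.4 ± 7.54 in KO and 40.01 ± 2.92 in WT (SD, n = 3 each). Its difference of 0.75 (0.27 to 1.23, limma adjusted p = 0.439) had the smallest adjusted p of the 32 enzymes, and it rests on 1 probe set. Every KO signal lay above every WT signal, with KO over WT ratios of 2.02, 1.61 and 1.46, and the difference was 0.78 without pair 2. The differences of Pgls and Pgd were 1.71, 1.80 and 1.02 apart in pairs 1 to 3, on the log2 scale, a contrast singled out in the same way (exact sign-flip p = 0.25, again the smallest possible).

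Tkt, transketolase, read 615, 567 and 661 in KO and 681, 781 and 611 in WT, a log2 difference of -0.16 (-0.66 to 0.33, limma adjusted p = 0.874). The groups overlapped, and pair 3 was higher in KO. Tkt reached 85.2% of the brightest signal on its array, and its dimmer probe sets gave -0.32 and -0.73. The dimmest, at 9.35, 10.5 and 10.6 in KO and 17.6, 20.5 and 13.2 in WT, did not overlap between the genotypes. Taldo1, transaldolase, read 199, 166 and 214 in KO and 254, 311 and 178 in WT (-0.33, -0.96 to 0.30, limma adjusted p = 0.775), lower in pairs 1 and 2 and higher in pair 3. The branch median over 4 genes was -0.25, and -0.03 without pair 2. It was 0.21 over the 2 genes, Tkt and Pgls, that have a tested plain probe set, with no s, x or a in its name. Pgd and Taldo1, both with a negative mean difference, have none and were left out there, so that value does not cover them. G6pdx, which starts the pathway, had no probe set named here and was not analysed here.

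Khk, ketohexokinase, the entry point of fructose, read 5.07, 4.61 and 4.76 in KO and 4.28, 4.504 and 4.12 in WT. The groups did not overlap, but the difference was small at 0.16 (-0.29 to 0.61, limma adjusted p = 0.862).

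Of the 13 enzymes with more than 1 tested probe set, 12 had the same sign on all of them, and Pfkl was the exception. Some of these probe sets carry the x mark of cross-matching, among them all 5 of Aldoa and all of Pgd but the dimmest. Probe sets of a gene read the same RNA, so their agreement is not independent.

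**Figure D5:**
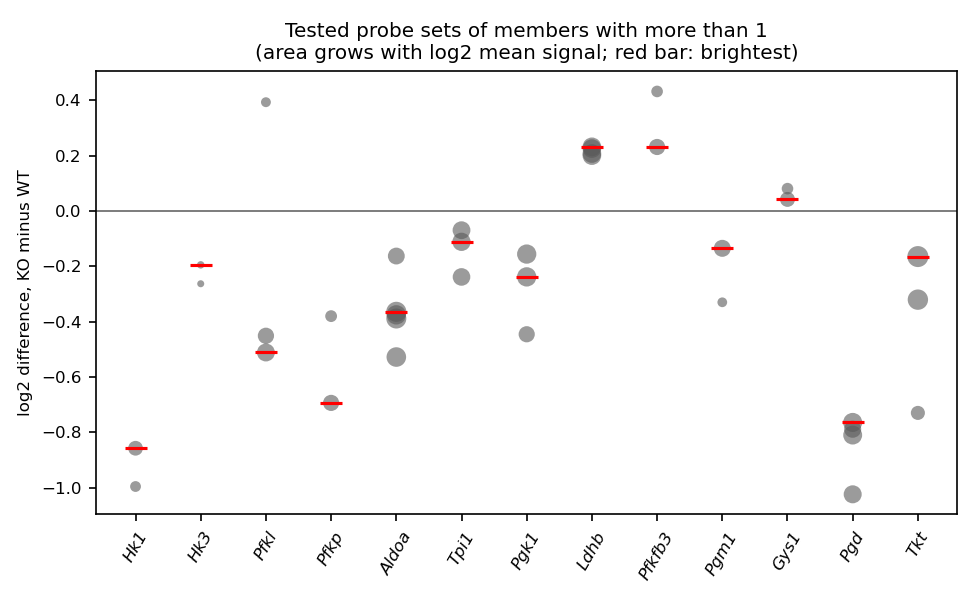
Log2 difference, KO minus WT, of each tested probe set of the 13 enzymes that have more than 1, with circle area growing with the log2 mean signal and a red bar on the probe set used for the gene. The 4 Pgd probe sets lie between -1.02 and -0.76 and the 4 Ldhb probe sets between 0.20 and 0.23, while Pfkl has 1 dim probe set above 0.

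The 250 bases before the start site were read from the RefSeq promoter table of GRCm38.p6 for all 39 genes, 57 windows in all. They are shown for the 4 enzymes with a log2 difference of at least 0.58 either way and no overlap between KO and WT signals. Capitals mark the hypoxia response core, ACGTG or GCGTG on either strand, which the factors Hif1a and Epas1 are known to bind at glycolytic genes, and which overlaps the E-box CACGTG.
Hk2, chr6:82774455-82774704, minus strand: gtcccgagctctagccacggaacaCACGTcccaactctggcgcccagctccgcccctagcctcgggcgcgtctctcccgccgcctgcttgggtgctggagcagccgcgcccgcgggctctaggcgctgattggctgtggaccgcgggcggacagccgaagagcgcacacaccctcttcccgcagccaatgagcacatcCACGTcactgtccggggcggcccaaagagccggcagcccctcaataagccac
Pfkp, chr13:6648772-6649021, minus strand: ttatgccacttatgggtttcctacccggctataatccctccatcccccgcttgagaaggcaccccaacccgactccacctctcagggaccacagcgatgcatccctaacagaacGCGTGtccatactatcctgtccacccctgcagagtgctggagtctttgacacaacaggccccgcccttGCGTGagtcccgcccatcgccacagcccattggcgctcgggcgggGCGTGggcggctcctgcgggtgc
Pgd, chr4:149166706-149166955, minus strand, the first of 2 windows: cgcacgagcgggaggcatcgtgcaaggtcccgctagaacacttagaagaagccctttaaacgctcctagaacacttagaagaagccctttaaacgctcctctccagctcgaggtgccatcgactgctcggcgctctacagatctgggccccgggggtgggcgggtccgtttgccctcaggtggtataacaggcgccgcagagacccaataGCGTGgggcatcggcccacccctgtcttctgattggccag
Pgls, chr8:71591934-71592183, plus strand: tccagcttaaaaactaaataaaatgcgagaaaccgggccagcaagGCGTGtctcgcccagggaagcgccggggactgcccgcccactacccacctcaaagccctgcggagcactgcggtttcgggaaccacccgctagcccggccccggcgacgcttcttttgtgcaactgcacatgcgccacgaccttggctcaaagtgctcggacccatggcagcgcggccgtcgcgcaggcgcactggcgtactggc
The windows held 2 cores for Hk2, 3 for Pfkp, 1 for Pgd and 1 for Pgls, and 0 E-boxes. The second window of Pgd, which is not shown, held 0 cores. Over the 39 genes, 42 of 57 windows (73.7%) held a core, against 38.6% of all 32851 windows, and 7 (12.3%) held the E-box CACGTG, to which Mlxipl binds in pairs, against 6.02%. The GC box GGGCGG was in 30 (52.6%), against 32.7%. The enzymes' windows were richer in G and C, with a median of 59.2% against 52.4% and 13 against 6 CG dinucleotides, and the part of base composition in these shares was not tested. A match is a run of letters and was not shown to be a bound site.

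Around these enzymes, 80 other genes of sugar metabolism and its control were listed and 55 were tested. Of the 55, 0 passed the adjusted test, 12 (21.8%) were lower and 4 (7.27%) higher in all 3 pairs, against 19.7% and 10.9% of all genes. With no overlap, 7 (12.7%) were lower and 0 higher, against 7.87% and 4.43%, and the median was -0.10, or 0.01 without pair 2. The carbohydrate-responsive factor Mlxipl, which drives glycolytic and lipogenic genes, read 52.0, 49.4 and 56.1 in KO and 87.3, 138 and 79.5 in WT, a log2 difference of -0.91 (-1.50 to -0.32, limma adjusted p = 0.440). Every KO signal lay below every WT signal, and WT 2 was its highest array, as for Hk2. Among the other 8 regulators tested, Egln1 and Egln3, oxygen-sensing hydroxylases, gave -0.43 and 0.42, and the hypoxia factor Epas1 gave -0.38. Without pair 2 these were -0.63 for Mlxipl, -0.31 for Egln1, 0.77 for Egln3 and -0.16 for Epas1.

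Of 7 other pentose phosphate and ribose genes tested, 3 (42.9%) were lower and 1 (14.3%) higher in all 3 pairs, against 19.7% and 10.9% of all genes. H6pd, which carries out the first steps of the pathway inside the endoplasmic reticulum, read 23.5, 19.8 and 19.0 in KO and 31.0, 31.6 and 25.4 in WT (-0.50, limma adjusted p = 0.561), with no overlap. The ribose isomerase Rpia gave -0.50, with pair differences of -0.09, -1.22 and -0.18, and was -0.13 without pair 2. The epimerase Rpe gave -0.25, and Prps1, which activates ribose for nucleotide synthesis, gave 0.25, and 0.14 without pair 2.

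Among 22 other glycogen genes, Ppp1r3b, which targets a phosphatase to glycogen, read 26.8, 91.2 and 85.5 in KO and 52.0, 149 and 109 in WT (-0.67, limma adjusted p = 0.486). Ugp2, which makes the activated glucose for glycogen, the phosphorylase kinase subunit Phka2 and the kinase Gsk3b gave -0.43, -0.40 and -0.37, lower in 3 of 3 pairs each, and Gsk3b was -0.25 without pair 2. Of 6 genes of fructose, polyol and galactose handling and hexosamine synthesis, Tkfc, which phosphorylates the triose made from fructose, read 0.479, 1.24 and 0.431 in KO and 1.62, 1.90 and 1.30 in WT, with no overlap. Its difference of -1.32 (-1.97 to -0.67, limma adjusted p = 0.396) was at least 1.5-fold in each pair, at signals near the array median. Tkfc was the 1 gene of the 55 at that size in every pair. Gfpt2, Gnpda1 and Gfpt1, which act on hexosamines, gave 0.54, 0.24 and 0.17, and 0.44, 0.04 and 0.27 without pair 2. Of 11 other glycolytic and gluconeogenic genes, the liver-type pyruvate kinase Pklr had 1.32 (0.07 to 2.56, limma adjusted p = 0.569) from dim signals of 1.78, 3.21 and 2.08 in KO and 0.577, 0.509 and 2.62 in WT, and 0.65 without pair 2. Slc37a4 carries glucose phosphate, Tigar dephosphorylates the sugar phosphate whose level the Pfkfb enzymes set, and Mpc1 carries pyruvate. Their differences were -0.48, -0.25 and -0.18, in the same order, and that of Slc37a4 was -0.28 without pair 2.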

How the data were processed

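Labelled RNA from BAT of each animal was hybridised by the authors to an Affymetrix Mouse Genome 430 2.0 array. They deposited 1 linear signal intensity for each probe set, from GCOS per the labels, whose version and scaling were not given in the sources used here. Control probe sets (64) were left out, and 45037 remained. Intensities were divided by the array median, as the methods of the study do, floored at 0.25 and put on the log2 scale. The 22356 probe sets with a mean above 1 were fitted with limma 3.58.1 (R 4.3.3), by lmFit and eBayes on genotype plus littermate pair, and p-values were adjusted by Benjamini-Hochberg over all of them. The fit was tested on simulated data.

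The platform annotation names 1 gene for 34945 probe sets, several for 932 and none for 9160. The methods of the study describe pairs of littermates and compare KO with WT of the same number, while the labels give the numbers only. The correlation of littermates' deviations from their group means was 0.446, 0.0847 and 0.160, against -0.359 to 0.281 for arrays of animals that were not littermates. An exact test over 3 pairs cannot go below p = 0.25, two-sided. All members are named, with values for every array where the log2 difference was at least 0.58, or the unadjusted p was under 0.05, for isoforms of hexokinase, phosphofructokinase, aldolase, mutase, enolase and lactate dehydrogenase, and for the brightest gene of each branch. Of each other list the 4 tested genes with the largest differences are named, and Eno3, Pygm, Ppp1r3g and Gys2 were added after their values had been seen. The members and lists were chosen with earlier results of these data known. Alternatives were other scalings, floors, filters and variance priors, the fit without pairs, another choice of probe set, and leaving out each pair. The number of arrays limits the precision.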

Additional observations from a re-analysis of the deposited data

How the results depend on the processing

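The adjusted test called 0 probe sets and 0 of the 32 enzymes, with 1911 probe sets and 6 enzymes at an unadjusted p of 0.05. With limma, 311 probe sets and 4 enzymes (Hk1, Pfkp, Pgd and Pgls) passed with an intensity trend and robust prior, 40 probe sets at a mean signal above 2, 123 with a pseudocount of 1, and 0 to 255 with a pair left out, where 255 came without pair 1. No enzyme passed in the last 3 of these. Without littermate pairs as a block, 0 probe sets and 0 enzymes passed, with 1283 probe sets at an unadjusted p of 0.05 in place of 1911. The median of fructose bisphosphate control, -0.01, was 0.00141 at a mean signal above 2, 0.00673 with a pseudocount, 0.0195 with quantile normalization, 0.0557 with signals as deposited and -0.13 to 0.24 with a pair left out. The glycogen median, -0.05, was 0.0219 with quantile normalization, 0.0151 as deposited and 0.0418 on plain probe sets. Plain probe sets carry neither s or x, the marks of cross-matching, nor a in their names. On them the pentose phosphate median was 0.21 over 2 genes, without Pgd and Taldo1. Lower in all 3 pairs were 7 of 22 enzymes. The share of all genes on plain probe sets was not counted, so that count has no background beside it. With a pair left out, 14 to 18 enzymes (43.8% to 56.2%) were lower and 6 to 7 (18.8% to 21.9%) higher in both pairs that remained, against 25% to 40.8% and 15.7% to 28.8% of all genes, and the median of all enzymes ran from -0.30 to -0.09. Of the 32 enzymes, 26 kept their sign in every setting and 6 did not. Pfkl was 0.39 on its plain probe set, and Pgam2 ran from -3.15 to 0.44 with a pair left out. Pfkfb2 was 0.00673, 0.0195 and 0.0557 with a pseudocount, quantile normalization and signals as deposited, and -0.13 to 0.24 with a pair left out. Pgm2 ran from -0.0695 to 0.21, Gys1 from -0.10 to 0.28 and Pygb from -0.0247 to 0.12, each below 0 without pair 1 and Gys1 also without pair 3. The causes were not tested.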

Other observations

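Both animals of a pair shared levels of several glucose genes that differed between pairs by more than they differed between genotypes. Beside Pfkfb3, Ppp1r3g, a glycogen-targeting phosphatase subunit, read 2.87, 0.589 and 0.880 in KO and 2.41, 0.530 and 0.645 in WT, so pair 1 was high in both genotypes. Ppp1r3b, a related subunit, was low in pair 1 of both genotypes, and its pair means spanned 1.64 on the log2 scale, beside 2.24 for Ppp1r3g and 2.02 for Pfkfb3. Gys2, the liver-type glycogen synthase, read 22.7, 10.02 and 10.5 in KO and 21.8, 22.01 and 10.1 in WT, where KO 2 was low and WT 2 high. These genes were chosen after their values had been seen.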
